A study of Mus musculus with 9 samples.

Results

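Lung endothelial cells from mice with 3-week-old breast cancer metastases were compared with those from healthy mice, all under control rat IgG. The comparison takes 6 of the 9 arrays of the study, 3 titled as metastatic lung with rat IgG and 3 titled as healthy lung with rat IgG, and all 18193 genes that the arrays measured by a probe set with 1 gene symbol. The mice were NSG, an immunodeficient strain without mature lymphocytes, and were 6 to 8 weeks old. In the metastatic group they had received MDA-MB-231-LM2, a human breast cancer line selected for growth in lung, through the tail vein, then rat IgG on days 21 and 24, with lungs taken on day 25. The healthy mice were of matched age, received rat IgG and carried no cancer cells. The remaining 3 arrays came from metastatic lungs of mice given DC101, a rat antibody against VEGFR2, at 40 mg/kg on the same days. Endothelial cells were sorted from the whole lung as CD31-positive cells without GFP, the label of the cancer cells, and without EpCAM, CD140a/b, CD45 or CD11b, so they include vessels away from the nodules. Arrays within a group are labelled as biological replicates, but nothing ties each to 1 mouse, and p-values therefore cover only the variation among these samples, which may be technical.

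The lung holds a very dense capillary bed whose endothelial cells rest under normal conditions and divide rarely. When such cells are activated they can enter the cell cycle, remodel the basement membrane on which they sit, display adhesion molecules and chemokines to leukocytes, and answer interferon through receptors that switch on a broad set of antiviral genes. In a bulk sorted sample, a lower signal from fewer cells of a type and a lower signal from less RNA per cell cannot be told apart.

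Levels are RMA values on the log2 scale, given for replicates 1 to 3 of the healthy and then of the metastatic arrays, and differences are metastatic minus healthy. A gene is said to have risen or fallen, or to be called, when its limma test had a Benjamini-Hochberg adjusted p under 0.05 over all 18193 genes. Errors of log2 differences are moderated standard errors with n = 3 arrays per group. Levels are not compared between genes, because probes differ in brightness.

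The sorted cell type was checked first. Pecam1, which encodes CD31, was at 14.10, 14.12 and 14.14 in the healthy arrays and at 14.14, 14.08 and 14.18 in the metastatic arrays. Cdh5, which encodes VE-cadherin, was at 14.03, 14.0 and 14.06 against 14.03, 14.09 and 14.0. Kdr, which encodes VEGFR2, was at 13.87, 13.75 and 13.78 against 13.71, 13.76 and 13.81. The groups overlapped for all 3 genes, and their log2 differences were 0.01, 0.01 and -0.04. Arrays of a group correlated over all genes with r of 0.988 to 0.991, and the median SD of a gene was 0.135 in the healthy and 0.139 in the metastatic arrays. The Gapdh control probe sets for the 3′ and 5′ ends of the transcript, whose difference grows with RNA degradation or short amplified product, differed by 0.74, 0.77 and 0.69 in the healthy arrays and by 0.56, 0.47 and 0.57 in the metastatic arrays. Every metastatic array was lower than every healthy one in this measure, and its part in the results was not tested. The same difference for Actb was 0.01, 0.09 and -0.11 in the healthy and 0.01, 0.03 and 0.09 in the metastatic arrays, where the groups overlapped.

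Of 18193 genes, 715 were higher (3.93%) and 473 were lower (2.60%) in metastatic lung, 1188 or 6.53% in all. Each count of called list members given below is to be set against these shares. Counts of 1 or 2 members are not read as a change of the list. The median log2 difference was -0.02 over all genes and the median size among called genes was 0.81. Large differences lay mostly on the higher side, where 340 called genes exceeded 1 and 93 exceeded 2, against 77 and 3 on the lower side. A gap of more than 1 between the nearest arrays of the groups was found for 173 genes on the higher and 16 on the lower side. Healthy and metastatic arrays were fully separate for 27.6% of genes, so non-overlap alone is common here. All 1188 called genes were among them, so statements of non-overlap for called genes describe their values and add no support to the call. Leaving out 1 array left 556 called genes without healthy replicate 1, 630 without metastatic replicate 3 and 736 to 759 without any of the other 4 arrays, and 320 higher and 118 lower genes were called in every one of these 6 fits.

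**Figure D1:**
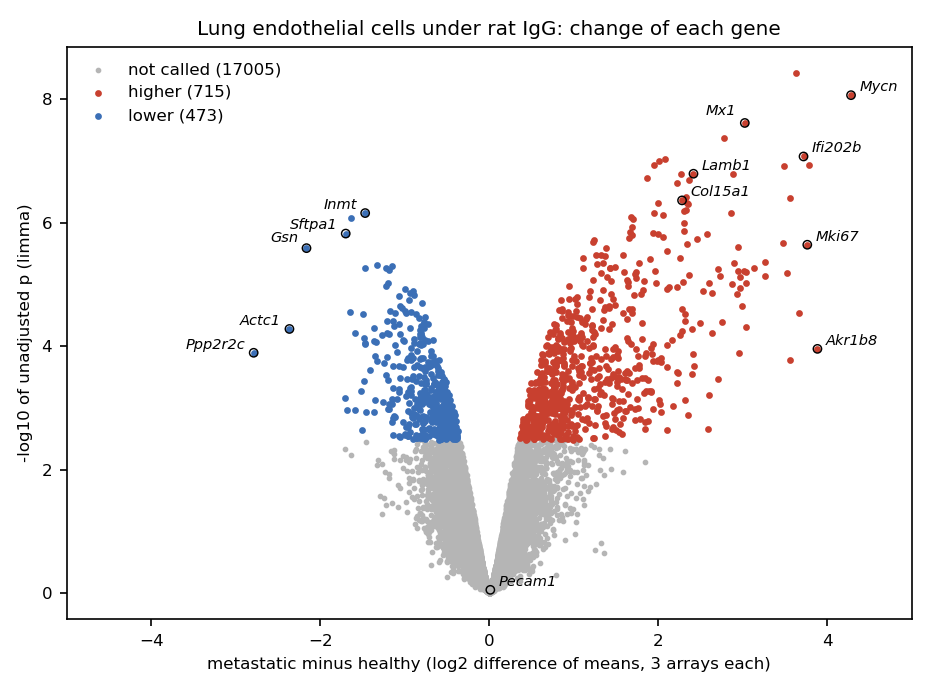
Log2 difference of each of 18193 genes (metastatic minus healthy, x axis) against -log10 of its unadjusted limma p (y axis), red for the 715 genes called higher, blue for the 473 called lower and grey for the rest. The red cloud reaches beyond a log2 difference of 4 at Mycn, the blue cloud ends at Ppp2r2c with -2.79, and Pecam1 lies at 0.01.

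Genes were ranked by the gap between the nearest arrays of the groups, and the first 15 in each direction were described. The higher genes fell into a growth and division group, an interferon group and a few others. Mycn, which encodes the growth-promoting factor N-MYC, had the widest gap of all. Its level was 7.35, 7.55 and 7.50 in the healthy arrays and 11.48, 11.80 and 11.95 in the metastatic arrays, a log2 difference of 4.28 ± 0.14 or 19.4-fold (adjusted p = 7.76e-05). The nearest arrays of the groups were 3.93 log2 units apart. The 3 probe sets of Mycn gave differences from 0.63 to 4.28, so the fold is that of the brightest one. Myc, the founding member of the family, rose as well, from 8.58, 8.54 and 8.30 to 10.57, 10.67 and 10.34 (2.05 ± 0.13, adjusted p = 0.000486). These were the only 2 of 12 measured genes of the MYC and MAX network that were called. Mycl differed by 0.04, Max by -0.17 and Mxd1 by -0.12, none of which passed the test.

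The division genes with the widest gaps encode parts of the mitotic machinery. Nusap1, which bundles spindle microtubules, was at 6.82, 7.16 and 6.76 in the healthy and 11.03, 10.52 and 10.54 in the metastatic arrays (3.78 ± 0.18). Mki67, the coat protein of mitotic chromosomes widely used as a proliferation marker, was at 8.01, 8.63 and 8.68 against 12.73, 11.85 and 12.03 (3.76 ± 0.27). Metastatic replicate 1 was the highest array for both genes, and no array of 1 group reached the other. Anln, the contractile ring protein anillin, differed by 3.48 ± 0.25 and Birc5, the chromosomal passenger protein survivin, by 3.26 ± 0.28. Shcbp1, a partner of the adaptor SHC, differed by 3.26 ± 0.26, Cdca8, the passenger protein borealin, by 3.03 ± 0.25, and Bub1, a kinase of the spindle checkpoint, by 3.03 ± 0.27. Metastatic replicate 1 was again the highest array for all 5 of these genes. Top2a, which untangles DNA before division, differed by 3.52 ± 0.30, but by 0.55 (adjusted p = 0.259) once suffixed probe sets were dropped. Suffixed probe sets are those whose names end in a_at, s_at or x_at, and that of Top2a ends in a_at. Cdca8 differed by 1.39 in that case and kept its call, and the 2 probe sets of Bub1 differed by 0.10 and 3.03. The 2 probe sets of Anln differed by 1.13 and 3.48, and those of Nusap1 by 1.43 and 3.78.

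The interferon group was led by Rsad2 and Ifi202b. Rsad2, the antiviral protein viperin, was at 9.46, 9.55 and 8.85 in the healthy and 12.68, 12.83 and 13.03 in the metastatic arrays (3.56 ± 0.20, adjusted p = 0.000393). Ifi202b, an interferon-inducible DNA-binding protein, was at 8.44, 8.51 and 8.02 against 11.81, 12.09 and 12.21 (3.72 ± 0.17). The gap between nearest arrays was over 3 log2 units for both. Mx1, an antiviral GTPase, was at 7.53, 7.51 and 7.24 against 10.37, 10.54 and 10.43 (3.02 ± 0.11), and Ifit2, which binds foreign RNA, was at 9.0, 9.07 and 8.74 against 11.77, 11.65 and 11.73 (2.78 ± 0.11). Within the metastatic group these 2 genes spread over less than 0.2 log2 units.

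The remaining higher genes of the ranking belong to neither group. Ildr2, a membrane receptor of the immunoglobulin superfamily, was at 8.67, 9.19 and 8.79 in the healthy and 12.55, 12.37 and 12.17 in the metastatic arrays (3.48 ± 0.16). Its 3 probe sets ranged from 1.42 to 3.48. Clca3a1, of the calcium-activated chloride channel regulator family, was at 8.03, 8.33 and 8.41 against 11.12, 11.33 and 10.97 (2.88 ± 0.14). All 15 higher genes were called in each of the 6 fits that left out 1 array. The gene listed only as AA467197 was kept out of the ranking by its accession-style name and is mentioned here after its values were seen, with a difference of 3.63 and the lowest adjusted p of all genes (6.8e-05).

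**Figure D2:**
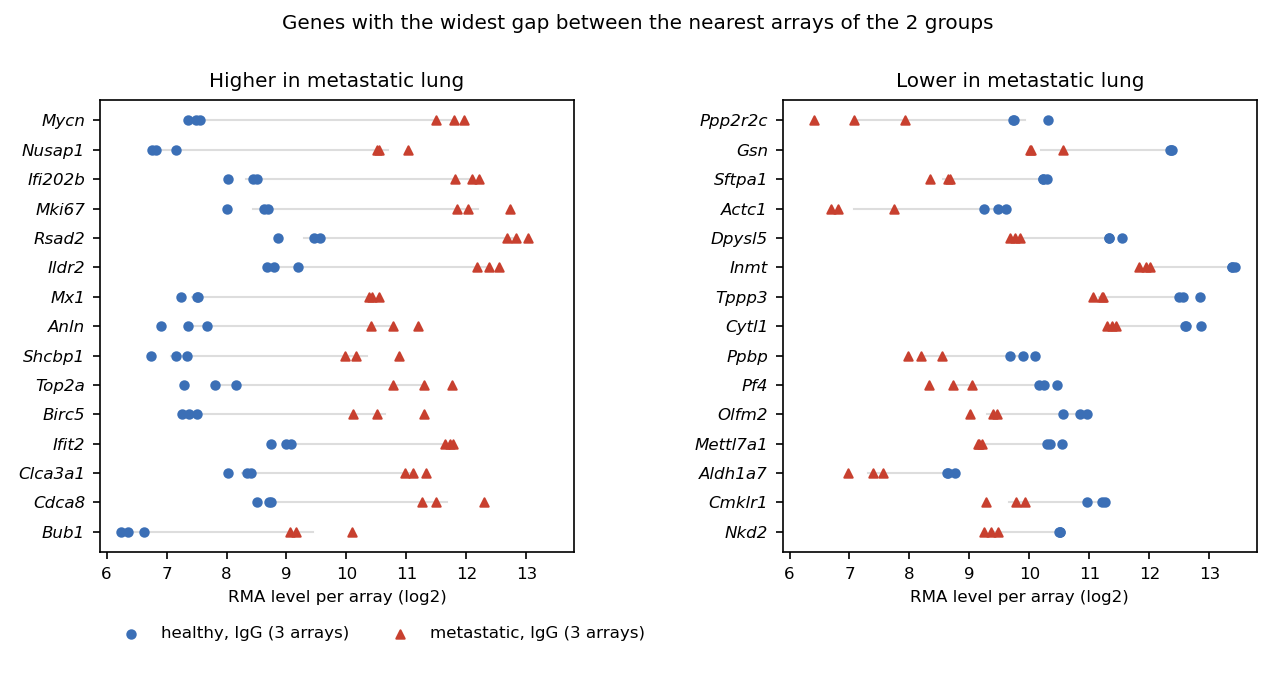
RMA level (log2, x axis) in each of the 3 healthy arrays (blue circles) and 3 metastatic arrays (red triangles) for the 15 higher and 15 lower genes with the widest gap between nearest arrays, a grey line joining the group means. No red and blue symbols of a gene mix, which the ranking requires, and the gap is widest at Mycn, between 7.55 and 11.48.

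To set these genes beside their regulatory sequence, the 200 bases before the start site were taken from RefSeq promoter windows of the build GRCm38.p6. For interferon, Rsad2 and 3 called members of the guanylate-binding protein and immunity-related GTPase families are shown with the core of the interferon-stimulated response element, because 6 of 8 windows of these families held it. The windows of Ifi202b and Ifit2, from the same leading interferon group as Rsad2, held no match and are not printed. The core was searched as GAAANNGAAA on both strands, and capitals mark it.
Rsad2 (chr12:26456453-26456652, minus strand): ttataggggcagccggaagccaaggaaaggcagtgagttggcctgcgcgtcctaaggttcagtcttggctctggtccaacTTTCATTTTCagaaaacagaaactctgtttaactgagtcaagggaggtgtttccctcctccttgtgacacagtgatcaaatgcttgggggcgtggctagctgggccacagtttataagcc
Igtp (chr11:58199356-58199555, plus strand): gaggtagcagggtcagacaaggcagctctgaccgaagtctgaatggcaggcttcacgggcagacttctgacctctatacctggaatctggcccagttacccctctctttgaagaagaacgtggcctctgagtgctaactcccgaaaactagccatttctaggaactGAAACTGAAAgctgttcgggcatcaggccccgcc
Gbp3 (chr3:142559844-142560043, plus strand): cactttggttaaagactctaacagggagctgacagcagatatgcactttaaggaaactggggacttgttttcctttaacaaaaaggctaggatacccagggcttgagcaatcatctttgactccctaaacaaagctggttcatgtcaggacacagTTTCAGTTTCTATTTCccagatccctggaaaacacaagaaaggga
Irgm2 (chr11:58214777-58214976, plus strand): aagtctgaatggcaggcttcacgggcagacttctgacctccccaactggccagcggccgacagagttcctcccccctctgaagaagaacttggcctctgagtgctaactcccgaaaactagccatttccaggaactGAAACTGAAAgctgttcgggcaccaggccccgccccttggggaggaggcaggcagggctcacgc

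In Rsad2 the match read on the opposite strand and began at position -120 from the start site. In Gbp3 a pair of overlapping matches lay on the opposite strand. The windows of Igtp and Irgm2, neighbours on chromosome 11, share a run of 40 identical bases upstream of the motif. Over windows of 300 bases (250 before and 50 after the start) the core was found in 3.03% of 18109 windows of all 14452 genes with a window, in 6.49% of windows of genes called higher and in 2.87% of windows of genes called lower. Of the guanylate-binding and immunity-related GTPases called higher, 4 of 5 windows held it, and so did 4 of 10 windows of the called RNA sensors and their partners. The gamma-activated site core, TTCNNNGAA, was found in 7.21% of all windows, 6.64% of the higher and 6.78% of the lower genes. It lay in 3 of 8 windows of all guanylate-binding and immunity-related GTPases and in 2 of 5 of the called ones. Of the called RNA sensors and their partners, 2 of 10 windows held it. A match describes the letters of the window only.

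The interferon lists separated the response genes from the interferons themselves. Among 22 measured RNA sensors, members of the ISG15 system and PARPs, 13 were higher and none lower, against 3.93% and 2.60% of all genes, with a median difference of 0.56. Zbp1, a sensor of Z-form nucleic acid, was at 8.51, 8.44 and 8.67 in the healthy and 10.70, 10.64 and 10.92 in the metastatic arrays (2.22 ± 0.11). Usp18, which removes ISG15 and damps interferon receptor signalling, was at 9.64, 9.59 and 9.55 against 11.56, 11.67 and 11.78 (2.07 ± 0.09). Sting1, the adaptor of the DNA sensor cGAS, was at 8.98, 9.05 and 8.85 against 10.81, 10.60 and 10.58 (1.70 ± 0.11). In each of these genes the lowest metastatic array was at least 1.52 log2 units above the highest healthy one. Eif2ak2, the kinase PKR that halts translation when it meets viral RNA, rose by 1.32 ± 0.10 and the ubiquitin ligase Herc6 by 1.09 ± 0.15. The RNA sensor Ifih1 (0.49, adjusted p = 0.0712), Uba7 (0.19) and Parp9 (0.30) did not pass. Leaving out 1 array gave 6 to 10 higher members, fewest without metastatic replicate 2.

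The guanylate-binding proteins and immunity-related GTPases, which attack vacuoles of intracellular microbes, moved by less. Of 11 measured, 5 were higher and none lower, with a median of 0.44. Gbp3 was at 10.66, 10.93 and 10.84 in the healthy and 11.54, 11.45 and 11.57 in the metastatic arrays (0.71 ± 0.10), and Igtp at 11.88, 11.82 and 11.54 against 12.36, 12.68 and 12.73 (0.84 ± 0.14). The groups did not overlap for either. Gbp6 (0.63, adjusted p up to 0.0948 without healthy replicate 1), Irgm2 (0.53, up to 0.136 without metastatic replicate 2) and Gbp2 (0.44, up to 0.147 without healthy replicate 1) were called with all 6 arrays but in none of the fits that left out 1. In those fits 1 or 2 members were called, and Igtp had an adjusted p of up to 0.0641 without metastatic replicate 3.

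Among 14 interferon regulatory factors and STATs, only Irf7 rose and only Irf1 fell. Irf7, the factor that amplifies type I interferon responses, was at 10.49, 10.59 and 10.40 in the healthy and 12.36, 12.64 and 12.31 in the metastatic arrays (1.95 ± 0.12). Irf1, a factor induced above all by interferon gamma, was at 13.91, 13.87 and 13.95 against 13.41, 13.48 and 13.40 (-0.48 ± 0.08, adjusted p = 0.0189, up to 0.0655 without healthy replicate 1). The 2 genes thus moved in opposite directions, with no overlap between groups in either. None of 17 measured interferon ligands and receptors was called, with a median of -0.01, and Ifnb1 was at 6.98, 6.99 and 7.09 against 6.80, 6.99 and 6.96. None of 26 proteasome subunits was called either. The immunoproteasome subunit Psmb8 differed by 0.33 (adjusted p = 0.0673), Psmb9 by 0.14 and Psmb10 by -0.17.

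**Figure D3:**
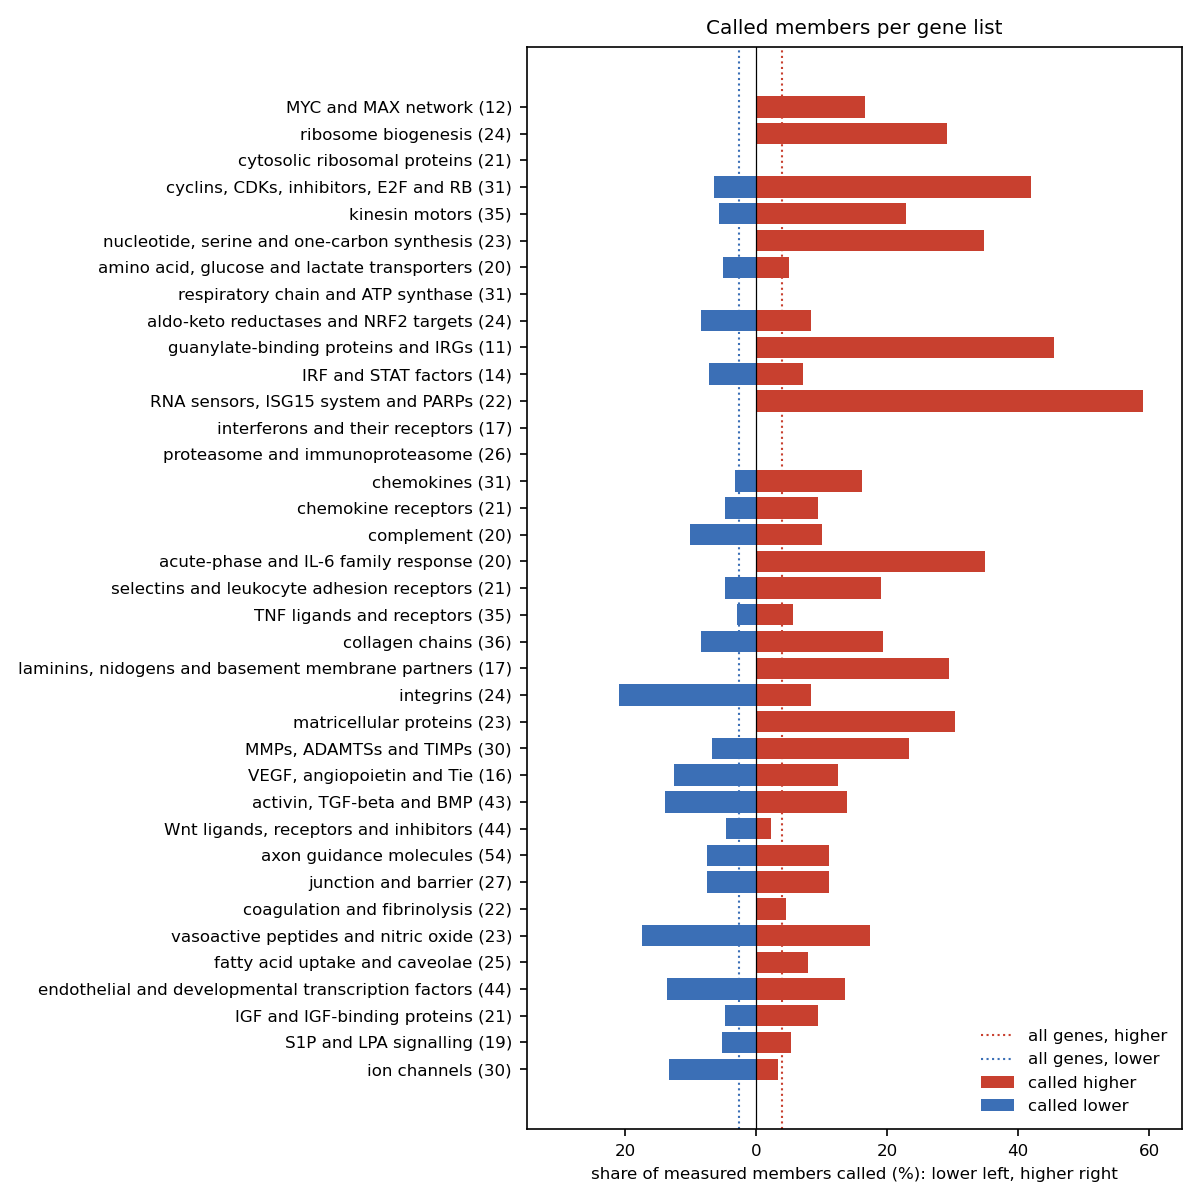
Share of measured members called higher (red, to the right, %) and lower (blue, to the left, %) in each of 37 functional gene lists, with measured members in brackets and dotted lines at the shares over all genes (3.93% and 2.60%). Bars reach furthest to the right for RNA sensors (13 of 22) and furthest to the left for integrins (5 of 24), and 4 lists have no bar.

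Cell division genes beyond the ranking were described in a list of cyclins and a list of kinesins. Of 31 measured cyclins, cyclin-dependent kinases, inhibitors, E2F and RB family members, 13 were higher and 2 lower, with a median of 0.68. Ccna2, the cyclin of S phase and early mitosis, was at 8.55, 9.06 and 9.19 in the healthy and 12.20, 11.58 and 11.85 in the metastatic arrays (2.94 ± 0.21). Ccnb2, a mitotic cyclin, was at 7.51, 7.99 and 7.37 against 11.01, 10.17 and 10.49 (2.94 ± 0.24). Cdk1, their shared kinase, was at 8.19, 8.60 and 8.40 against 11.79, 10.91 and 11.18 (2.90 ± 0.23). Metastatic replicate 1 was the highest array for all 3, and the other 2 metastatic arrays also lay more than 2 log2 units above every healthy array. The repressor E2f8 rose by 2.10 ± 0.30 and the CDK phosphatase Cdkn3 by 2.0 ± 0.28. The D cyclins Ccnd2 (0.06) and Ccnd3 (-0.18) did not pass, nor did Ccne2 (0.80, adjusted p = 0.0521). Both lower members were inhibitors, Cdkn1b and Cdkn2b, named here after their values were seen, with differences of -0.40 and -0.80. Neither was called once any single array was left out (adjusted p up to 0.143 without healthy replicate 1 and 0.119 without metastatic replicate 3), and 8 to 13 higher members were, fewest without healthy replicate 1.

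Of 35 kinesin motors, 8 were higher and 2 lower, and the higher ones work on the spindle or the midbody. Kif11, which slides spindle poles apart, was at 6.51, 7.0 and 6.78 in the healthy and 9.93, 9.35 and 9.13 in the metastatic arrays (2.71 ± 0.22). Kif20a, a motor of cytokinesis, was at 8.15, 8.77 and 8.41 against 10.99, 10.43 and 10.58 (2.22 ± 0.20), and Kif23, of the midzone, at 8.19, 8.12 and 8.31 against 11.10, 9.95 and 10.41 (2.28 ± 0.27). No arrays overlapped between the groups. Kif20b rose by 1.80 ± 0.28, with an adjusted p of up to 0.0575 without healthy replicate 1. The 4 probe sets of Kif20b ranged from -0.04 to 1.80, and the 3 of Kif23 from 0.38 to 2.28. Kif2c, a microtubule depolymerase, rose by 2.87 ± 0.26 but was at 0.75 (adjusted p = 0.217) without suffixed probe sets. The transport motors Kif1a (-0.33), Kif1b (-0.11) and Kif1c (-0.09) did not pass. The median over all 35 was 0.09, and 5 to 8 higher members were called when 1 array was left out, fewest without healthy replicate 1.

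The promoters of 4 division genes, Kif11 among them, are shown as examples that hold both the cell cycle homology region, here TTTGAA, and the CCAAT box. Of the division genes with the widest gaps, Anln, Top2a and Cdca8 also held TTTGAA in their windows, while Nusap1, Birc5 and Bub1 did not, and Nusap1, Anln and Birc5 held no CCAAT. Capitals mark either motif on either strand, and the 2 do not overlap in these windows.
Mki67 (chr7:135716380-135716579, minus strand): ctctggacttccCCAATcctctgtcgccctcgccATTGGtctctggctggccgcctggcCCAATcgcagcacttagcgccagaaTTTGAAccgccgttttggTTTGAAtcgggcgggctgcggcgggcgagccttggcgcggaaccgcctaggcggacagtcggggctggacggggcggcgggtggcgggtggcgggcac
Cdk1 (chr10:69352913-69353112, minus strand): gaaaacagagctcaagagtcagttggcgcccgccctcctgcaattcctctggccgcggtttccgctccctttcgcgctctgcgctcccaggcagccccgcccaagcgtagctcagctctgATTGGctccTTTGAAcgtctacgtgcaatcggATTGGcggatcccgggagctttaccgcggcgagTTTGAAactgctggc
Kif11 (chr19:37376182-37376381, plus strand): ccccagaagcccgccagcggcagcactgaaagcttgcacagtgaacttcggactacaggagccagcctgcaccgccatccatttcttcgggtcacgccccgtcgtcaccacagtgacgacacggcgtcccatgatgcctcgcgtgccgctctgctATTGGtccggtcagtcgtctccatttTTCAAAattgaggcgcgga
Cdkn3 (chr14:46760341-46760540, plus strand): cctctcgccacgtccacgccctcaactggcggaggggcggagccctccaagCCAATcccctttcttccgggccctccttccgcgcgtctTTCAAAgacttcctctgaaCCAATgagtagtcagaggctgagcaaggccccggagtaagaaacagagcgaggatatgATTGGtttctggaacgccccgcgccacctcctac

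TTTGAA was found in 13.4% of all windows, in 19.34% of windows of genes called higher and in 12.53% of windows of genes called lower. It was found in 7 of 7 windows of the called higher kinesins and in 12 of 32 windows of all kinesins. It was also found in 4 of 11 windows of the called higher cyclins and kinases. It was not particular to division genes. The called RNA sensors and their partners held it in 5 of 10 windows, and the called guanylate-binding and immunity-related GTPases in 2 of 5. The second form searched, with adenine in place of guanine, showed little difference. That form was found in 10.39% of all windows, 10.97% of the higher and 11.5% of the lower genes. Among called higher genes, 2 of 7 kinesin windows and 1 of 11 windows of cyclins and kinases held the second form. CCAAT was found in 37.37% of all windows, 41.41% of the higher and 36.55% of the lower genes, and in 5 of 7 windows of the called higher kinesins. The E-box core CACGTG, which MYC and MAX can bind, was found in 8.72% of all windows, 7.65% of the higher and 11.29% of the lower genes.

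Genes that supply a dividing cell moved in part. Of 23 measured genes of nucleotide, serine and one-carbon synthesis, 8 were higher and none lower, with a median of 0.51. Rrm2, the inducible subunit of ribonucleotide reductase, was at 8.23, 8.83 and 8.43 in the healthy and 12.11, 11.16 and 11.63 in the metastatic arrays (3.13 ± 0.26). Mthfd2, a mitochondrial folate enzyme, was at 7.96, 7.89 and 8.07 against 9.50, 9.68 and 9.75 (1.67 ± 0.10). All metastatic arrays were above all healthy ones, by 1.44 or more for Mthfd2 and 2.33 or more for Rrm2. Tk1, thymidine kinase, rose by 1.91 ± 0.25, Ctps, CTP synthase, by 1.01 ± 0.10, and Psat1, of serine synthesis, by 1.69 ± 0.27 (adjusted p = 0.0144, up to 0.0571 without metastatic replicate 3). Phgdh (-0.04), Psph (-0.27) and Shmt1 (-0.24), which stand before or after Psat1 in the same route, did not pass.

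Of 24 ribosome biogenesis genes, 7 were higher and none lower, with a median of 0.30, but the differences were small and only 2 or 3 were called when 1 array was left out. Ncl, nucleolin, was at 11.91, 11.93 and 11.87 in the healthy and 12.42, 12.53 and 12.45 in the metastatic arrays (0.56 ± 0.08). Rrp12 was at 7.98, 7.97 and 8.0 against 8.62, 8.71 and 8.48 (0.62 ± 0.09). Both stayed called in the 6 fits, although Ncl lost its call with the mean of its 5 probe sets, which differed by -0.01 to 0.56, and Rrp12 with all 9 arrays in the fit. Wdr12 (0.98, adjusted p up to 0.111 without metastatic replicate 2), Tsr1 (0.53, up to 0.103 without healthy replicate 2) and Nhp2 (0.50, up to 0.118 without metastatic replicate 2) were less stable. The snoRNP proteins Nop56 (0.03), Nop58 (0.09) and Fbl (0.49, adjusted p = 0.0681) did not pass. None of 21 cytosolic ribosomal proteins and none of 31 respiratory chain and ATP synthase genes was called, with medians of 0.11 and -0.03.

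Of 20 transporters of amino acids, glucose and lactate, Slc7a1, a cationic amino acid carrier, was higher (0.58, adjusted p up to 0.0828 without healthy replicate 1) and Slc38a5, a glutamine carrier, was lower (-1.13, up to 0.0812 without metastatic replicate 3). Of 24 aldo-keto reductases and NRF2 targets, 2 were higher and 2 lower, against 3.93% and 2.60% of all genes. Akr1b8, an aldo-keto reductase, was at 6.82, 8.68 and 6.73 in the healthy and 11.23, 11.04 and 11.61 in the metastatic arrays (3.88 ± 0.50). Healthy replicate 2 lay almost 2 log2 units above the other healthy arrays, yet still 2.36 below the lowest metastatic one. Gsta3, a glutathione transferase, fell from 9.32, 8.98 and 9.46 to 7.90, 8.07 and 8.15 (-1.21 ± 0.14), though its other probe set differed by 0.05. Txnrd1 (0.49) was higher and Cbr1 (-0.54) lower, and neither kept its call in every fit with 1 array left out (adjusted p up to 0.08 without healthy replicate 1 and 0.0584 without healthy replicate 1).

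Among 31 chemokines, 5 were higher and 1 lower. Cxcl10, a ligand of CXCR3 induced by interferon, was at 8.77, 8.55 and 9.07 in the healthy and 11.14, 11.32 and 11.64 in the metastatic arrays (2.57 ± 0.17). Cxcl9, of the same receptor, was at 6.50, 7.21 and 6.77 against 8.58, 8.15 and 8.33 (1.53 ± 0.20). Ccl5, a T cell attractant, was at 7.40, 7.26 and 7.48 against 8.40, 8.59 and 8.70 (1.18 ± 0.11). For these 3 genes every metastatic array was above every healthy one, as for every gene called higher. Cx3cl1, the membrane-bound chemokine fractalkine, went the other way, from 12.49, 12.45 and 12.52 to 11.44, 11.61 and 11.58 (-0.94 ± 0.09), while another of its 4 probe sets differed by -0.01. Cxcl13, a B cell chemokine, rose by 1.53 ± 0.27, with an adjusted p of up to 0.0711 without metastatic replicate 2. The macrophage attractants Ccl2 (0.15), Ccl3 (-0.12) and Ccl4 (-0.32) did not pass. With 1 array left out, 3 or 4 chemokines were called higher.

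Of 21 chemokine receptors, 2 were higher and 1 lower, against 3.93% and 2.60% of all genes. Ackr1, a scavenging receptor that marks venules, was at 9.17, 9.34 and 8.84 in the healthy and 10.63, 11.04 and 10.82 in the metastatic arrays (1.71 ± 0.16). Ccrl2, which presents chemerin, fell from 12.39, 12.35 and 12.31 to 11.62, 11.80 and 11.55 (-0.69 ± 0.10). The chemerin receptor Cmklr1, one of the 15 lower genes with the widest gaps, was at 10.97, 11.21 and 11.26 against 9.78, 9.28 and 9.93 (-1.48 ± 0.18). Both chemerin-binding genes were thus lower in all 3 metastatic arrays than in any healthy one. Cxcr4, the receptor of CXCL12, was higher by 0.68 ± 0.12 (adjusted p = 0.0237, up to 0.0811 without metastatic replicate 3) and lost its call with all 9 arrays in the fit.

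Of 20 acute-phase and IL-6 family genes, 7 were higher and none lower, with a median of 0.24. Serpina3n, a secreted protease inhibitor, was at 8.19, 8.41 and 8.59 in the healthy and 10.42, 10.95 and 10.82 in the metastatic arrays (2.34 ± 0.17). Lrg1, a secreted leucine-rich glycoprotein, was at 10.90, 10.69 and 10.65 against 12.80, 12.78 and 12.45 (1.93 ± 0.13), and Ptx3, a pentraxin that tags microbes, at 7.14, 6.69 and 6.66 against 8.31, 8.03 and 8.62 (1.49 ± 0.19). These 3 were called in every fit with 1 array left out, in which 3 to 5 of the list were called, fewest without metastatic replicate 3, though the other probe set of Ptx3 differed by 0.02. Saa3 rose by 1.65 ± 0.25 (adjusted p up to 0.0506 without metastatic replicate 3) and Lcn2, which binds bacterial iron carriers, by 1.36 ± 0.23 (up to 0.0682 without metastatic replicate 3). The liver-type genes Saa1 (0.33), Saa2 (-0.05) and Orm1 (-0.29) did not pass. The neutrophil marker list, which holds granule genes such as Ngp and S100a8, had a mean level of 7.43 to 7.76 in the healthy and 7.87 to 8.06 in the metastatic arrays with 0 of 8 genes called, and its part in the rise of Lcn2 and the other genes was not tested.

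Complement genes other than C1qa, C1qb and C1qc showed no common direction. Of 20 measured, 2 were higher and 2 lower, against 3.93% and 2.60% of all genes. The C1q genes were called higher with all 6 arrays and are given below with the macrophage markers. Cfb, factor B of the alternative pathway, was at 9.53, 9.34 and 9.93 in the healthy and 11.23, 11.51 and 11.52 in the metastatic arrays (1.82 ± 0.17). Masp1 (1.10) was higher. Cd55 (-0.74), which shields cells from complement, and Vtn (-1.15), vitronectin, were lower. Each of the latter 3 was called in at most 2 of the 6 fits that left out 1 array, with adjusted p up to 0.0979 without metastatic replicate 1, 0.0777 without healthy replicate 1 and 0.11 without metastatic replicate 3.

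Of 21 leukocyte adhesion receptors, 4 were higher and 1 lower, with a median of 0.03, and 1 to 3 higher ones were called when 1 array was left out. Cd34, a ligand of L-selectin, was at 13.09, 13.04 and 12.95 in the healthy and 13.69, 13.68 and 13.75 in the metastatic arrays (0.68 ± 0.09). Selp, P-selectin, was at 11.69, 11.15 and 11.44 against 12.16, 12.69 and 12.60 (1.06 ± 0.19, adjusted p up to 0.0772 without metastatic replicate 3). E-selectin, Sele, differed by as much (1.11) but with a healthy array at 7.75 it did not pass (adjusted p = 0.063). Selplg (-0.31) and Icam1 (-0.17) did not pass either. Jam3 (0.55), Emcn (0.53) and Cd99 (-0.49) were called with 6 arrays but reached adjusted p of 0.0934 without healthy replicate 1, 0.107 without healthy replicate 2 and 0.103 without healthy replicate 1. Of 35 TNF ligands and receptors, the death receptor Fas fell from 11.80, 11.89 and 11.83 to 11.15, 11.21 and 11.17 (-0.66 ± 0.08). Tnfrsf11b, osteoprotegerin, was higher by 1.46 and Eda2r by 0.98, with adjusted p up to 0.113 without metastatic replicate 3 and 0.123 without metastatic replicate 2. Tnf (-0.10), Lta (-0.18) and Ltb (-0.09) did not pass.

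Among 17 measured laminins, nidogens and partners, 5 were higher and none lower, with a median of 0.20. Lamb1, the laminin beta-1 chain, was at 9.71, 9.45 and 9.36 in the healthy and 11.90, 12.02 and 11.83 in the metastatic arrays (2.42 ± 0.12, adjusted p = 0.000227). Lama1, the alpha-1 chain best known from embryonic tissue, was at 8.63, 8.62 and 9.10 against 11.05, 11.07 and 10.54 (2.11 ± 0.19). Lama4, an alpha chain of vascular basement membranes, was at 9.86, 9.98 and 9.78 against 11.13, 11.28 and 11.54 (1.44 ± 0.13). In all 3 genes the groups lay at least 1 log2 unit apart. Lamc1, the gamma-1 chain, rose by 0.66 ± 0.09, and Nid1, a nidogen, by 0.39 with an adjusted p of up to 0.114 without healthy replicate 1. The other alpha chains Lama2 (-0.34), Lama3 (-0.84) and Lama5 (-0.20) had negative differences that did not pass the test.

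Of 36 collagen chains, 7 were higher and 3 lower, with a median of 0.16, and 3 to 8 higher and 2 or 3 lower ones were called when 1 array was left out. Col15a1, a basement membrane zone collagen, was at 9.57, 9.85 and 9.39 in the healthy and 11.95, 11.83 and 11.88 in the metastatic arrays (2.28 ± 0.13). Col18a1, the source of endostatin, was at 9.41, 9.59 and 9.79 against 11.17, 11.06 and 11.48 (1.64 ± 0.15). The groups were 1.99 and 1.27 log2 units apart. The fibrillar chains Col1a1, at 9.86, 10.57 and 10.41 against 11.69, 12.38 and 12.31 (1.85 ± 0.24), and Col1a2, at 11.17, 11.79 and 11.77 against 12.46, 13.18 and 12.94 (1.29 ± 0.24, adjusted p up to 0.0833 without metastatic replicate 3), varied more within each group. These 2 and Col3a1 are also fibroblast markers. Of 17 fibroblast and mural markers, 3 were higher (Col1a1, Col1a2 and Col3a1) and 3 lower (Dcn, Tcf21 and Myh11), with 1 to 3 in each direction when 1 array was left out, and the mean level of the list was 9.61 to 9.77 in the healthy and 9.46 to 9.78 in the metastatic arrays. Dcn, decorin, was at 11.18, 11.58 and 11.63 against 10.06, 10.92 and 10.25 (-1.05, adjusted p up to 0.14 without metastatic replicate 3) and the receptor Pdgfra, against whose product cells were sorted, differed by -0.57 (adjusted p = 0.0596). Their part in the collagen result was not tested.

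Col4a3, a type IV collagen chain of alveolar and glomerular basement membranes, went down from 8.55, 8.91 and 8.34 to 6.90, 7.41 and 7.08 (-1.47 ± 0.19), while the common chain Col4a1 was at 14.11, 14.18 and 14.09 against 14.36, 14.40 and 14.36 (0.24, adjusted p = 0.142). In the lung Col4a3 is made by alveolar epithelium, for which 7 of 19 markers were lower, as given further on. Col2a1 (-0.17) and Col4a5 (0.96) did not pass.

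**Figure D4:**
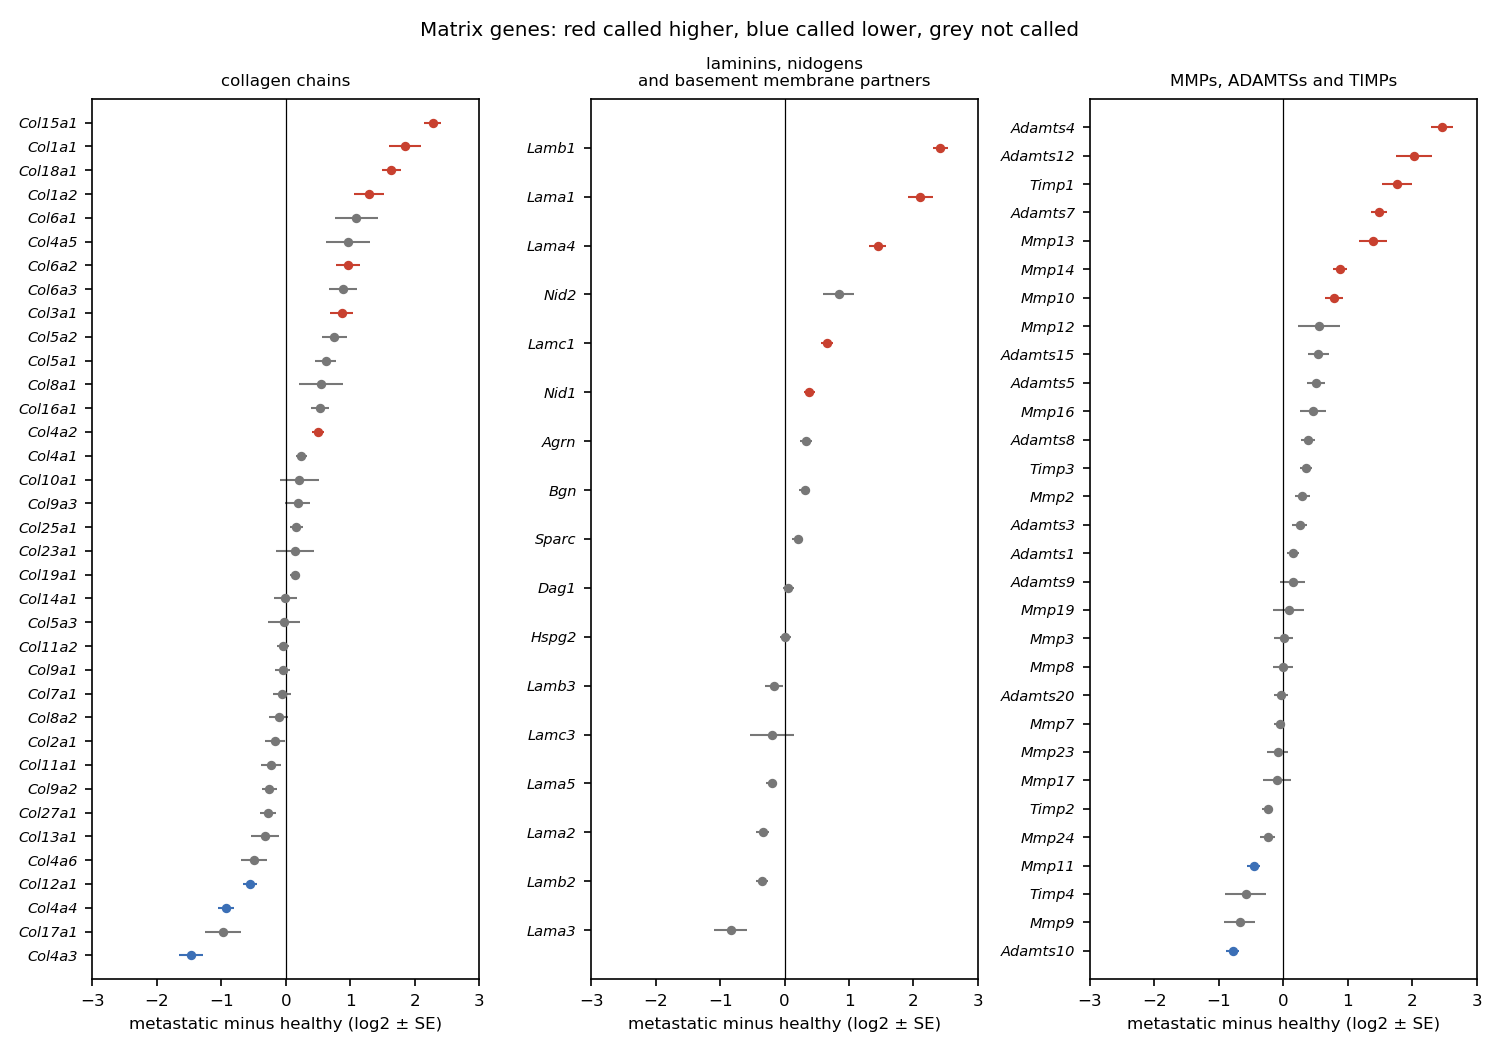
Log2 difference (metastatic minus healthy, x axis) with its standard error for every measured collagen chain, laminin or basement membrane partner, and MMP, ADAMTS or TIMP, n = 3 arrays per group, red called higher, blue called lower, grey not called. Lamb1 (2.42), Adamts4 (2.46) and Col15a1 (2.28) lead their lists, and Col4a3 (-1.47) lies lowest.

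Matricellular proteins, which modulate contact between cells and matrix, had 7 of 23 higher and none lower, with a median of 0.30. Fn1, fibronectin, was at 10.36, 10.46 and 10.67 in the healthy and 11.87, 12.54 and 12.16 in the metastatic arrays (1.69 ± 0.18). Vcan, versican, was at 7.83, 8.07 and 7.39 against 9.33, 10.03 and 9.23 (1.77 ± 0.26), and Ccn4, of the CCN family, at 8.49, 8.73 and 9.0 against 10.48, 10.42 and 9.86 (1.51 ± 0.20). No arrays of the groups overlapped, although the 8 probe sets of Vcan ranged from -0.16 to 2.03. Tnc, tenascin C, was at 6.53, 7.12 and 6.76 against 8.26, 9.54 and 9.32 (2.24 ± 0.33, adjusted p up to 0.0535 without healthy replicate 1). With 1 array left out, 5 to 8 members were called higher. Thbs2 rose by 1.10 ± 0.17, whereas Thbs1 (0.01), Tnxb (-0.60) and Tnr (-0.02) did not pass.

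Of 30 MMPs, ADAMTS proteases and TIMPs, 7 were higher and 2 lower, and 5 to 7 and 1 or 2 when 1 array was left out. Adamts4, which cleaves aggrecan and versican, was at 8.10, 8.30 and 8.13 in the healthy and 10.25, 10.87 and 10.80 in the metastatic arrays (2.46 ± 0.17). Adamts7 was at 8.38, 8.56 and 8.37 against 9.72, 10.06 and 9.99 (1.49 ± 0.12), and Timp1, an inhibitor of MMPs, at 8.09, 7.21 and 7.77 against 9.40, 9.23 and 9.74 (1.76 ± 0.24). All 3 lay more than 1 log2 unit higher in every metastatic array. Adamts12 rose by 2.03 ± 0.28, its other probe set differing by -0.12. The collagenase Mmp13 was at 5.53, 5.53 and 5.53 in the healthy arrays, 3 equal values near the lowest level on the arrays, and at 6.47, 7.40 and 6.89 in the metastatic arrays (adjusted p up to 0.0555 without healthy replicate 1). The gelatinase Mmp2 (0.30), Mmp3 (0.00) and Mmp7 (-0.06) did not pass.

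Of 24 integrin chains, 2 were higher and 5 lower, with a median of -0.10, and 1 or 2 higher and 1 to 4 lower ones were called when 1 array was left out. Itgb3, of the integrin that binds fibronectin and vitronectin on activated endothelium, was at 9.25, 9.0 and 8.68 in the healthy and 10.10, 10.13 and 9.90 in the metastatic arrays (1.07 ± 0.16). Itgb7, a leukocyte integrin chain, fell from 10.59, 10.12 and 10.32 to 9.13, 8.90 and 9.37 (-1.21 ± 0.16). Itgax (-0.69, adjusted p up to 0.0563 without healthy replicate 2) and Itgb2 (-0.63, up to 0.109 without healthy replicate 1), which are also leukocyte chains, and Itga8 (-1.15, up to 0.0666 without healthy replicate 2), of mesenchymal cells, were lower with all 6 arrays. Itga1 (-0.17), Itga2 (0.32) and Itga2b (-0.39) did not pass.

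Growth factors of the vessel wall shifted in single members. Of 16 VEGF, angiopoietin and Tie genes, 2 were higher and 2 lower, against 3.93% and 2.60% of all genes, with a median of 0.00. Nrp2, a co-receptor of VEGF-C and class 3 semaphorins, was at 10.88, 10.65 and 10.41 in the healthy and 12.32, 12.22 and 12.17 in the metastatic arrays (1.59 ± 0.13). Pgf, placental growth factor, was at 8.52, 8.81 and 8.23 against 9.48, 9.69 and 9.70 (1.10 ± 0.16). Angpt1, the agonist of the receptor Tie2, fell from 9.12, 9.20 and 8.74 to 7.98, 8.10 and 8.05 (-0.98 ± 0.13). These 3 were called in all 6 fits with 1 array left out, while Vegfd (-0.96) reached an adjusted p of 0.125 without healthy replicate 1. Vegfa (-0.19), Vegfb (0.11) and Vegfc (-0.34, adjusted p = 0.0631) did not pass.

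The activin, TGF-beta and BMP list had 6 of 43 members higher and 6 lower, and 3 or 4 higher and 2 or 3 lower ones when 1 array was left out. Inhbb, the beta-B subunit of activin and inhibin, was at 10.38, 10.59 and 10.40 in the healthy and 12.28, 12.37 and 11.88 in the metastatic arrays (1.72 ± 0.15). Smad1, which carries the BMP signal to the nucleus, was at 12.38, 12.25 and 12.15 against 13.10, 13.21 and 13.24 (0.93 ± 0.10). Smad6, an inhibitor that BMP signalling induces, fell from 13.38, 13.34 and 13.43 to 12.71, 12.56 and 12.71 (-0.72 ± 0.09). The carrier thus rose and the inhibitor fell, each without overlap. Id1 (-0.66, adjusted p up to 0.0811 without healthy replicate 1) and Id2 (-0.93, up to 0.0634 without metastatic replicate 2), targets of the same pathway, were lower. The activin beta-A gene Inhba was at 7.76, 7.97 and 6.81 against 8.27, 9.79 and 9.99, a difference of 1.84 that did not pass (adjusted p = 0.0808). Fst (0.43) and Inha (0.24) did not pass either.

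Wnt genes were close to the background, with 1 of 44 higher and 2 lower. Wnt9b was at 7.84, 8.08 and 7.87 in the healthy and 9.13, 9.28 and 9.07 in the metastatic arrays (1.23 ± 0.11), its other probe set differing by -0.13. Axin2, a general target and inhibitor of Wnt signalling, was at 10.54, 10.57 and 10.65 against 9.81, 9.89 and 9.66 (-0.80 ± 0.10), and lost its call with the mean of its 2 probe sets. Nkd2, a further Wnt inhibitor among the 15 lower genes, was at 10.50, 10.51 and 10.51 against 9.47, 9.35 and 9.24 (-1.15 ± 0.09). The 4 probe sets of Nkd2 ranged from -1.15 to -0.12. The secreted inhibitor Wif1 (-0.88) was lower (adjusted p up to 0.0991 without healthy replicate 2). Wnt2 (-0.01), Wnt2b (-0.50) and Wnt3 (0.06) did not pass.

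Of 54 axon guidance molecules, which also steer vessel sprouts, 6 were higher and 4 lower, and 5 or 6 and 1 to 3 when 1 array was left out. Sema3a, a repellent that binds neuropilins, was at 8.64, 9.30 and 8.83 in the healthy and 10.61, 10.89 and 10.30 in the metastatic arrays (1.68 ± 0.21). Unc5b, a netrin receptor of sprouting vessels, was at 10.93, 10.92 and 10.75 against 11.78, 11.59 and 11.75 (0.84 ± 0.10), and Plxnb2, a semaphorin receptor, at 11.19, 11.14 and 11.22 against 11.84, 12.14 and 12.01 (0.81 ± 0.10). Groups were separate in each. Sema5b rose by 1.53 ± 0.23 and Sema3d by 0.88 ± 0.16, the latter with an adjusted p of up to 0.0682 without metastatic replicate 3. Sema3b (-0.63), Sema3c (-0.07) and Sema3e (-0.68) did not pass.

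Of 27 junction genes, 3 were higher and 2 lower, against 3.93% and 2.60% of all genes, with a median of 0.01. Gja1, the gap junction protein connexin 43, was at 10.94, 11.03 and 10.28 in the healthy and 12.45, 12.69 and 12.55 in the metastatic arrays (1.81 ± 0.20). Gjc1, connexin 45, fell from 10.82, 10.81 and 10.60 to 10.03, 9.99 and 9.78 (-0.81 ± 0.11) and was at -0.47 (adjusted p = 0.14) without suffixed probe sets. Magi1, a scaffold at tight junctions, rose by 1.07 ± 0.13, and Jup (-0.50), plakoglobin, was lower (adjusted p up to 0.0793 without healthy replicate 1). Cldn5, the main endothelial claudin, was at 14.40, 14.36 and 14.36 against 14.18, 14.20 and 14.21 (-0.17, adjusted p = 0.266) and Cdh2 differed by 0.03. Among 22 coagulation genes only F8, the coagulation factor that lung endothelium secretes, was called, at 9.18, 9.03 and 8.72 against 10.19, 9.94 and 10.61 (1.27 ± 0.20). Thbd (-0.09), Procr (0.48) and F3 (-0.27) did not pass.

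Of 23 genes that set vessel tone, 4 were higher and 4 lower, and 3 and 1 to 3 when 1 array was left out. Adm, the dilator peptide adrenomedullin, was at 9.31, 9.83 and 9.64 in the healthy and 11.23, 11.15 and 11.28 in the metastatic arrays (1.63 ± 0.14). Apln, the peptide apelin of sprouting vessels, was at 10.98, 10.96 and 11.18 against 12.01, 12.04 and 12.29 (1.07 ± 0.12), and Nos2, the inducible nitric oxide synthase, at 7.84, 7.90 and 7.78 against 8.73, 8.95 and 8.96 (1.04 ± 0.10). The 3 were higher in every metastatic array. Gucy1b1, a subunit of the nitric oxide receptor typical of mural cells, was lower (-0.99), as was Ramp1 (-0.84), with adjusted p up to 0.0914 without healthy replicate 3 and 0.0784 without metastatic replicate 3. The receptors Aplnr (0.12) and Calcrl (0.07) and the co-receptor Ramp2 (-0.26) did not pass.

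Of 44 endothelial and developmental transcription factors, 6 were higher and 6 lower, but only 2 to 4 higher and 0 or 1 lower ones were called when 1 array was left out. Hif1a, the oxygen-regulated factor, was at 11.79, 11.97 and 11.82 in the healthy and 12.80, 12.86 and 12.76 in the metastatic arrays (0.95 ± 0.09). Mef2c was at 11.64, 11.49 and 11.42 against 12.24, 12.25 and 12.18 (0.71 ± 0.09). Prox1, the factor that specifies lymphatic endothelium, was at 7.76, 8.05 and 6.41 against 9.42, 9.75 and 9.99 (2.31 ± 0.41, adjusted p = 0.0208, up to 0.0786 without metastatic replicate 3), with the spread of the healthy arrays more than 1.6 log2 units. Tbx1 was higher by 0.82 (adjusted p up to 0.0689 without healthy replicate 1) and Gata3 (-0.78) lower (up to 0.146 without healthy replicate 1). Sox4 (0.26), Sox7 (-0.04) and Sox11 (-0.73) did not pass.

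In the last 4 lists few members were called. Of 21 genes in the IGF list, Igfbp3, an IGF-binding protein, was at 9.39, 9.50 and 9.29 in the healthy and 10.48, 10.77 and 10.40 in the metastatic arrays (1.16 ± 0.12). Mest, an imprinted gene kept in this list though not of the IGF family, was at 11.28, 11.38 and 11.33 against 12.18, 12.19 and 12.09 (0.82 ± 0.09). Irs1, an adaptor of the insulin and IGF receptors, was lower (-0.68, adjusted p up to 0.081 without healthy replicate 1). Igf1 (0.30), Igf2 (-0.45) and Igf1r (-0.13) did not pass. Of 25 genes of fatty acid uptake and caveolae, Cavin3 was higher by 0.81 ± 0.10 and the lipoprotein receptor Scarb1 by 0.59 ± 0.09 (adjusted p up to 0.0575 without healthy replicate 1), while Cd36 (-0.19), Fabp4 (-0.72) and Fabp5 (0.49) did not pass. Of 19 S1P and LPA genes, the LPA receptor Lpar4 was higher by 0.73 ± 0.11 and the S1P receptor S1pr3 lower (-0.96, adjusted p up to 0.0598 without healthy replicate 1), with S1pr1 at -0.17, not passing. Of 30 ion channels, 1 was higher and 4 lower, led by the potassium channels Kcnj2 (0.79, adjusted p up to 0.0812 without metastatic replicate 2) and Kcnk5 (-0.65, up to 0.103 without metastatic replicate 3), and each of these 5 was called in only 1 of the 6 fits with 1 array left out.

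The 15 lower genes with the widest gaps were a mixed group. Ppp2r2c, a regulatory subunit of protein phosphatase 2A, was at 10.30, 9.73 and 9.75 in the healthy and 7.93, 7.07 and 6.42 in the metastatic arrays (-2.79 ± 0.37, adjusted p = 0.00761), although another of its 3 probe sets differed by -0.03. Gsn, the actin-severing protein gelsolin, was at 12.34, 12.36 and 12.38 against 10.03, 10.01 and 10.56 (-2.16 ± 0.16), its 6 probe sets ranging from -2.16 to 0.02. Dpysl5, a collapsin response mediator, was at 11.54, 11.32 and 11.33 against 9.76, 9.67 and 9.84 (-1.64 ± 0.10). The healthy arrays were the tighter group for Gsn, within 0.04 of each other. Inmt, an N-methyltransferase abundant in lung, was at 13.44, 13.38 and 13.38 against 11.83, 12.01 and 11.95 (-1.47 ± 0.09), and Cytl1, a secreted cytokine-like protein, at 12.86, 12.62 and 12.60 against 11.29, 11.37 and 11.44 (-1.32 ± 0.11). Tppp3, a tubulin-binding protein, was at 12.85, 12.49 and 12.56 against 11.20, 11.23 and 11.07 (-1.47 ± 0.12). Every metastatic array was at least 1 log2 unit below every healthy one for these 3, as for all 15 lower genes of the ranking. Olfm2 differed by -1.50, Mettl7a1 by -1.22 and the aldehyde dehydrogenase Aldh1a7 by -1.36, the last of which was not called with all 9 arrays in the fit (adjusted p = 0.105). The 3 probe sets of Mettl7a1 ranged from -1.22 to -0.24. All 15 were called in each fit that left out 1 array.

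Several of the 15 mark other cells of the lung, and whole marker lists were therefore read by array. Platelet and erythrocyte markers were lower in 5 of 10 cases (3 to 5 with 1 array left out) and higher in none, with a mean level of the list of 8.70 to 8.84 in the healthy and 7.82 to 8.08 in the metastatic arrays. Pf4, platelet factor 4, was at 10.46, 10.25 and 10.15 against 8.33, 8.72 and 9.04 (-1.59 ± 0.19), and Ppbp, the precursor of a platelet chemokine, at 10.09, 9.90 and 9.68 against 8.55, 7.98 and 8.20 (-1.65 ± 0.17). Treml1, of platelet granules, differed by -1.24 ± 0.17. Tubb1 (-1.52, adjusted p up to 0.0583 without metastatic replicate 1) was lower, and so was Slc4a1, of red cells (-0.56, up to 0.0816 without healthy replicate 1), a difference that was 0.31 (adjusted p = 0.21) with the mean of its 3 probe sets. Itga2b (-0.39), Gp9 (-0.31) and Gp6 (-0.31) did not pass.

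Epithelial markers were lower in 7 of 19 cases and higher in none, although the sort was negative for EpCAM, and Epcam itself was at 7.37, 7.38 and 7.34 in the healthy and 7.23, 7.44 and 7.39 in the metastatic arrays. Leaving out 1 array gave 3 to 5 lower members and at most 1 higher one. Differences over the list ran from -1.70 to 1.35 with a median of -0.12. The mean level of the list was 8.94 to 9.53 in the healthy and 8.69 to 8.93 in the metastatic arrays. Sftpa1, surfactant protein A of type II alveolar cells, was at 10.23, 10.30 and 10.22 against 8.34, 8.68 and 8.64 (-1.70 ± 0.12). It was at -0.81 (adjusted p = 0.105) without suffixed probe sets. Sftpc, surfactant protein C, was at 12.90, 13.29 and 12.89 against 11.29, 12.20 and 11.52 (-1.36, adjusted p up to 0.0774 without metastatic replicate 3), and Ager, of type I alveolar cells, at 11.67, 11.56 and 11.36 against 9.57, 10.04 and 10.53 (-1.49, up to 0.0592 without healthy replicate 1). Healthy and metastatic arrays did not overlap for any of these 3. Cldn18 (-1.70, adjusted p up to 0.0662 without metastatic replicate 2) and Cdh1 (-1.12, up to 0.0866 without metastatic replicate 2) were lower. Sftpb (-0.86) and Pdpn (0.67) did not pass. The part of these markers in the lower Col4a3 was not tested.

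Macrophage markers were higher in 4 of 15 cases and in at most 2 with 1 array left out, and the mean level of the list was 8.75 to 8.93 in the healthy and 8.95 to 9.05 in the metastatic arrays. C1qa, of complement C1q, was at 7.26, 8.06 and 7.49 against 9.08, 9.65 and 8.69 (1.54 ± 0.29, adjusted p up to 0.0863 without healthy replicate 1), and C1qb and C1qc were higher by 1.38 and 0.70 (adjusted p up to 0.123 without healthy replicate 1 and 0.108 without healthy replicate 1). Mrc1, a mannose receptor that lung and lymphatic endothelium can also express, was higher by 0.73 (up to 0.143 without healthy replicate 1). Adgre1 (0.28), Cd68 (-0.15) and Lyz2 (-0.40) did not pass, and the median over the list was -0.10. Cardiac muscle markers had 1 of 13 called, Actc1, cardiac alpha-actin, at 9.25, 9.47 and 9.61 in the healthy and 6.82, 6.69 and 7.74 in the metastatic arrays (-2.36 ± 0.27), with the list at 7.74 to 8.06 and 7.53 to 7.60. Lymphocyte markers (0 of 8) and mesothelial markers (0 of 7) had no called gene, nor had the pan-endothelial list apart from Emcn, at 13.47 to 13.49 in the healthy and 13.46 to 13.47 in the metastatic arrays. The part of these other cells in the results above was not tested.

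**Figure D5:**
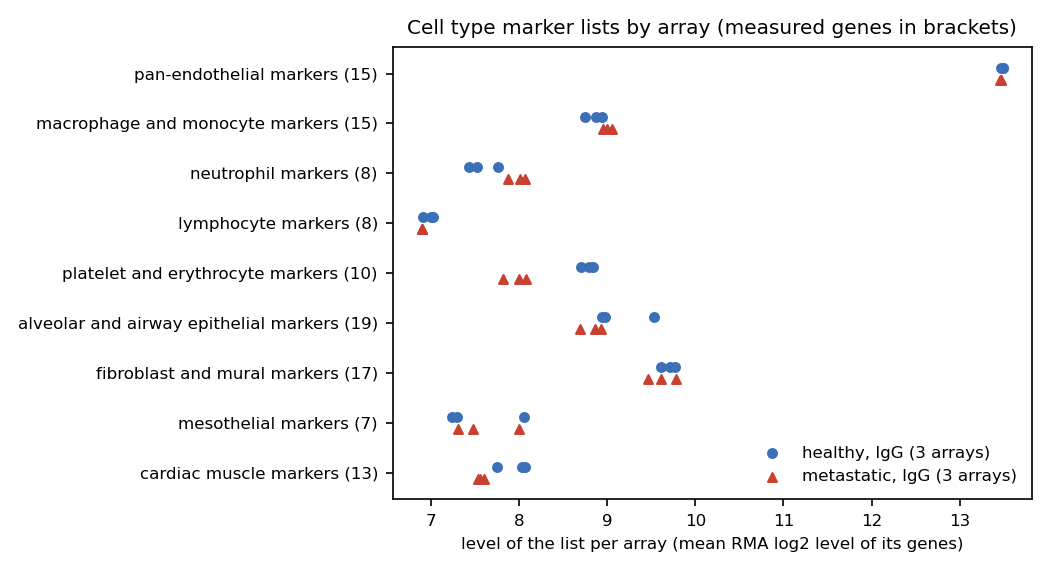
Mean RMA level (log2, x axis) of 9 cell type marker lists in each of the 3 healthy (blue circles) and 3 metastatic arrays (red triangles), measured genes in brackets. Platelet and erythrocyte markers lie at 8.70 to 8.84 in healthy and 7.82 to 8.08 in metastatic arrays, and pan-endothelial markers lie within 13.46 to 13.49 in both.

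In metastatic lungs under DC101, 0 of 18193 genes (0.00%) were called against metastatic lungs under IgG by limma, 1209 had an unadjusted p under 0.05 and the lowest adjusted p was 0.403. The comparison shares its IgG arrays with the one described above, so values are only set side by side, for a few genes chosen after their values were seen. Mean levels in healthy, metastatic IgG and metastatic DC101 arrays were 7.47, 11.75 and 12.21 for Mycn. They were 8.94, 11.72 and 11.34 for Ifit2, and 9.50, 11.92 and 10.80 for Lamb1. Under DC101, Mycn lay above both other groups, and Ifit2 and Lamb1 lay between them. Lama4 was at 9.87, 11.32 and 10.31, with a DC101 minus IgG difference of -1.01 ± 0.32 (adjusted p = 0.741). Sftpa1, lower under IgG, was at 10.25, 8.55 and 9.56, but its DC101 arrays were spread widely, at 9.41, 10.65 and 8.61.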

How the data were processed

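Sorted lung endothelial cells were profiled on Affymetrix mouse genome arrays from 500 pg of input RNA, which was amplified and biotin-labelled. The authors normalized the scans by robust multiarray averaging (RMA), as the methods state, and the deposited values are taken as log2 levels, which RMA returns, since the table itself does not state the log base. Of 45101 probe sets, 34945 with 1 gene symbol were kept, while 64 controls, 932 with several symbols and 9160 without a name were left out. Each of 18193 genes was represented by whichever probe set was brightest on average across the 9 arrays, and 9010 genes had several. The 6 arrays were fitted with limma 3.58.1 in R 4.3.3 (lmFit and eBayes, no covariate), and the DC101 and IgG arrays of metastatic lungs likewise. Python 3.11.15, pandas 2.3.3 and matplotlib 3.10.9 were used for tables and plots. The scripts were tested on simulated data. The values come without detection calls or scan dates, and the number of arrays limits the precision.

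Groups follow the sample titles. The report names the 15 higher and 15 lower called genes with the widest gap between groups among those with a proper gene name, and in each of 46 gene lists up to 5 called members of largest change and up to 3 in written order that did not pass, with Pecam1, Cdh5 and Kdr as checks. The lists hold 1157 entries, of which 1069 were measured. The comparison and the lists were chosen with earlier results of these data known, so counts per list are descriptions. Promoter windows (250 bases before and 50 after a start site) came from RefSeq, build GRCm38.p6. Alternatives were the mean of all probe sets, no suffixed probe sets (a_at, s_at or x_at) and all 9 arrays in the fit. Others were brighter genes only, quantile normalization, eBayes with trend and robust estimation, a replicate block, and leaving out each array.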

Additional observations from a re-analysis of the deposited data

How the results depend on the processing

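The 1188 called genes became 1260 when a gene's probe sets were averaged, 1042 with all 9 arrays in 1 fit and 1225 after quantile normalization. Without suffixed probe sets, 967 of 16591 genes tested were called. Among brighter genes only, those above the median of mean levels, 1345 were called. Fewer genes were tested there, so this count cannot be set directly against 1188. Trend and robust moderation gave 1766 called genes, 980 higher and 786 lower against 715 and 473. Leaving out 1 array gave 556 to 759 called genes, 382 to 516 higher and 174 to 250 lower, with fewer samples in the fit. With the replicate number as a block, 689 genes were called, 464 higher and 225 lower. Deviations of arrays with the same number correlated with r of 0.018, -0.04 and 0.0241, and those of arrays with different numbers with r from -0.0481 to 0.0291. Correlations over all genes cannot show whether arrays with the same number were processed together. The count of 0 for DC101 minus IgG held in the fits with all 9 arrays, with the replicate block and with each array left out.

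Of the named genes' values under single alternatives, 3479 stayed on their side of the threshold, 373 kept the direction and lost the call and 59 gained it. The 1 called gene that reversed was Slc4a1, at 0.31 with the mean of all probe sets (adjusted p = 0.21). Changes of sign between values that were both uncalled are counted among the 3479. The causes were not tested. All 9 arrays in 1 fit ended the calls of Slc7a1, Cxcr4, Emcn, Tnfrsf11b, Eda2r, Mmp13, Itgb2, Kcnj2, Kcnk5, Sftpc and Cdh1. The mean of all probe sets ended those of Txnrd1, Cd99, Nid1 and Ramp1. Leaving out suffixed probe sets ended those of Masp1, Id2 and C1qb. It also ended the calls of Irgm2, Gbp2, Gata3 and Mrc1, although their log2 differences were unchanged. More than 1 of these settings ended those of Wdr12, Tsr1, Nhp2, Jam3, Dcn, Vegfd, Sema3d, S1pr3 and Cdkn1b. With 3 arrays per group, a difference that missed the threshold is not shown to be absent.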
